A study of Mus musculus with 6 samples.

Results

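Transcripts of 10 genes were followed in mouse liver: the tissue inhibitors of metalloproteinases Timp1, Timp2 and Timp3 and the matrix metalloproteinases Mmp2, Mmp8, Mmp12, Mmp13, Mmp14, Mmp15 and Mmp19. They were chosen by gene symbol from the 24346 rows of the deposited table, and all 10 were found there. The samples were livers of C57BL/6 mice (male C57BL/6J in the methods of the study), 3 in the control group and 3 in the lipophagy group. The mice had received a high-fat diet that lacks choline and has defined amino acids (CDAHFD) from 8 weeks of age for 6 weeks as a model of nonalcoholic steatohepatitis. They were then injected with AAV8, returned to normal chow and analysed 2 weeks later. The lipophagy group received LDTS-eLIR, a lipid droplet-targeting sequence fused to an engineered LC3-interacting region, and the control group LDTS-LIR mut, in which the LC3-interacting region was inactivated. Both groups thus carried the droplet-targeting part, which is lipogenic by itself according to the study, and the viral vector and earlier diet, and no untreated liver was analysed here. The thyroxine-binding globulin promoter of the vector drives expression in hepatocytes, so that any difference in other liver cells was measured in cells not targeted by the vector. The labels number the livers 1 to 3 in each group but do not say whether each came from its own mouse, so the p-values measure the spread between these samples.

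Matrix metalloproteinases are zinc-dependent enzymes that are made as inactive precursors and cut collagens, elastin, gelatin and other proteins of the extracellular matrix. TIMP proteins bind the active site and block it, and in a scarred liver the balance of enzyme and inhibitor bears on whether collagen is laid down or removed. In the liver, stellate cells and macrophages are known as main sources of both, with neutrophils, bile duct cells and endothelium as further sources. Transcript levels do not report how much of the enzyme was active.

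Of the 10 genes, 8 had a promoter window in the table of RefSeq starts of GRCm38.p6 used here (250 bases before to 50 after each annotated start). It held no window under the symbols Mmp2 and Mmp19. The 100 bases before the start are shown for 6 genes, because they hold motif letters close to the start. Capitals mark 3 motifs, each searched on both strands. The letters TGANTCA are those of an AP-1 site, bound by Jun and Fos proteins. TATAAA is the core of the TATA box that positions transcription in many inducible genes. GGGCGG is the GC box bound by Sp1, and where it lies on the opposite strand its complement is in capitals.
Mmp13, chr9:7272414-7272513, plus strand: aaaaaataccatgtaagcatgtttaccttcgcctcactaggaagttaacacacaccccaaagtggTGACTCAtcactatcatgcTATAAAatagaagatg
Mmp12, second annotated start, chr9:7347274-7347373, plus strand: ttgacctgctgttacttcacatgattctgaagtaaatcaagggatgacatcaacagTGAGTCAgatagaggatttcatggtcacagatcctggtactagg
Timp1, chrX:20870066-20870165, plus strand: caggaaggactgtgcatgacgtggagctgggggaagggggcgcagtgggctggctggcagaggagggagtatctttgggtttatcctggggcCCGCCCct
Timp2, chr11:118355412-118355511, minus strand: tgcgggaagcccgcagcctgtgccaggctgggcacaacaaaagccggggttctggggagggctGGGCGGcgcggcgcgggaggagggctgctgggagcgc
Timp3, chr10:86300312-86300411, plus strand: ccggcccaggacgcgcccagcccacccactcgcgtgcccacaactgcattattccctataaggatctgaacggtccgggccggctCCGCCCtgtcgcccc
Mmp14, chr14:54431498-54431597, plus strand: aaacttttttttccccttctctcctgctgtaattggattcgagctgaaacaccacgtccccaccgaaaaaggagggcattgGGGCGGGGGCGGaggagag

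In Mmp13 the AP-1 letters lay at -35 to -29 from the annotated start and the TATA box at -16 to -11, and in Mmp12 the AP-1 letters lay at -44 to -38 of the second start. The window of the first annotated start of Mmp12 held none of the motifs. Outside the stretches shown, Mmp15 had a GC box at -106 to -101, Timp3 another at 14 to 19, Mmp12 a TATAAA at 5 to 10 of its second start and Mmp8 a TATAAA at -3 to 3. TGANTCA was found in 7.81% of the 32851 windows, TATAAA in 13.6% and GGGCGG in 35.7%. Timp1 had no TGANTCA in its window but held the near variant TGAGTAA at 27 to 33 bases after its start (chrX:20870184-20870206, tgggtggaTGAGTAAtgcgtcca), which was found in 2.68% of windows. Timp2, Timp3 and Mmp15 had 25, 24 and 22 CpG dinucleotides in 300 bases, Mmp14 had 10 and Timp1 had 8, whereas Mmp13 had 1, Mmp8 had 4 and the Mmp12 windows had 0 and 3. The median window held 7. These matches describe letters in the windows and do not show that a factor was bound.

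In GENCODE M21 (GRCm38), Mmp13, Mmp12 and Mmp8 lie in a run of 10 Mmp genes on chromosome 9 (7272514 to 7699585, 427.1 kb). Mmp13 (7272514 to 7283331) and Mmp8 (7558456 to 7568485) have 10 exons each. Mmp12 (7344381 to 7369499) lies between them. A mean of 0.5 FPKM (fragments scaled to transcript length and library total) or more was found for 4 of the 10 genes of the run, namely Mmp13, Mmp12, Mmp27 and Mmp7, and Mmp1a, Mmp1b and Mmp20 were listed at 0 in each liver. Timp1 (chromosome X, 20870166 to 20874735) lies within Syn1, and Timp3 (chromosome 10, 86300372 to 86349506) within Syn3, both on the opposite strand. Syn1 was at 0.0277 to 0.182 FPKM and Syn3 at 0.140 to 0.261 FPKM, so these host genes were far below the inhibitors they contain.

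Each of the 6 libraries was estimated at 22900000 to 34000000 fragments from the steps of its low values. Albumin, which marks hepatocytes, was at 35470.2 FPKM or more in every liver. Differences were tested on log2(FPKM + 1) with limma over 11493 genes (those whose mean over all livers reached 0.5 FPKM), a scale that understates the change of low genes. An adjusted p below 0.05 was found for 3 of them (0.0261%) and for 0 of the 9 tested members, while 6 of the 9 had an unadjusted p below 0.05. Mmp8, the tenth gene, was below the filter.

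The inhibitors and 3 of the proteinases were lower in the lipophagy livers. Timp1, Timp2, Timp3, Mmp2, Mmp13 and Mmp14 had an unadjusted p below 0.05, and for each of these 6 genes the highest lipophagy liver was below the lowest control liver. Their group means were 17.2% to 39.7% below control. Mmp12, Mmp15 and Mmp19 had overlapping livers. Among all tested genes, 7.97% were lower with an unadjusted p below 0.05 and 10.8% had all lipophagy livers below the control livers, against 6 of the 9 tested members for each. The members were chosen with earlier results of these data known, so these shares are a background and no test of the list. None of the 9 was higher with an unadjusted p below 0.05, against 11.5% of all tested genes. In all, 916 genes were lower and 1327 higher at this level, and with quantile normalization 899 were lower and 745 higher. Summed FPKM over all genes was 622696 to 681138 in control and 709993 to 782392 in lipophagy livers, and the part of this difference in the results was not tested. When each liver was scaled to the same sum, a setting chosen after seeing the data, the median log2 change of all tested genes moved by -0.14, with 2504 genes lower (21.8%) and 236 higher (2.05%) at this level. All 9 tested members then had negative estimates, Mmp15 (-0.15) and Mmp19 (-0.085) having turned, and 7 had an unadjusted p below 0.05. The median of the members minus that of all tested genes was -0.29 on either scale. The median log2 change was -0.27 over the 9 tested members and 0.020 over all tested genes. All 9 passed the filter in both groups. The count of 6 went down to 3 without control liver 2, when Timp2, Timp3 and Mmp2 still had an unadjusted p below 0.05 and Timp1, Mmp13 and Mmp14 did not (limma). In that fit 658 of 11474 tested genes were lower at this level. Because whole liver was sequenced, fewer cells of a type and less RNA per cell cannot be told apart.

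**Figure D1:**
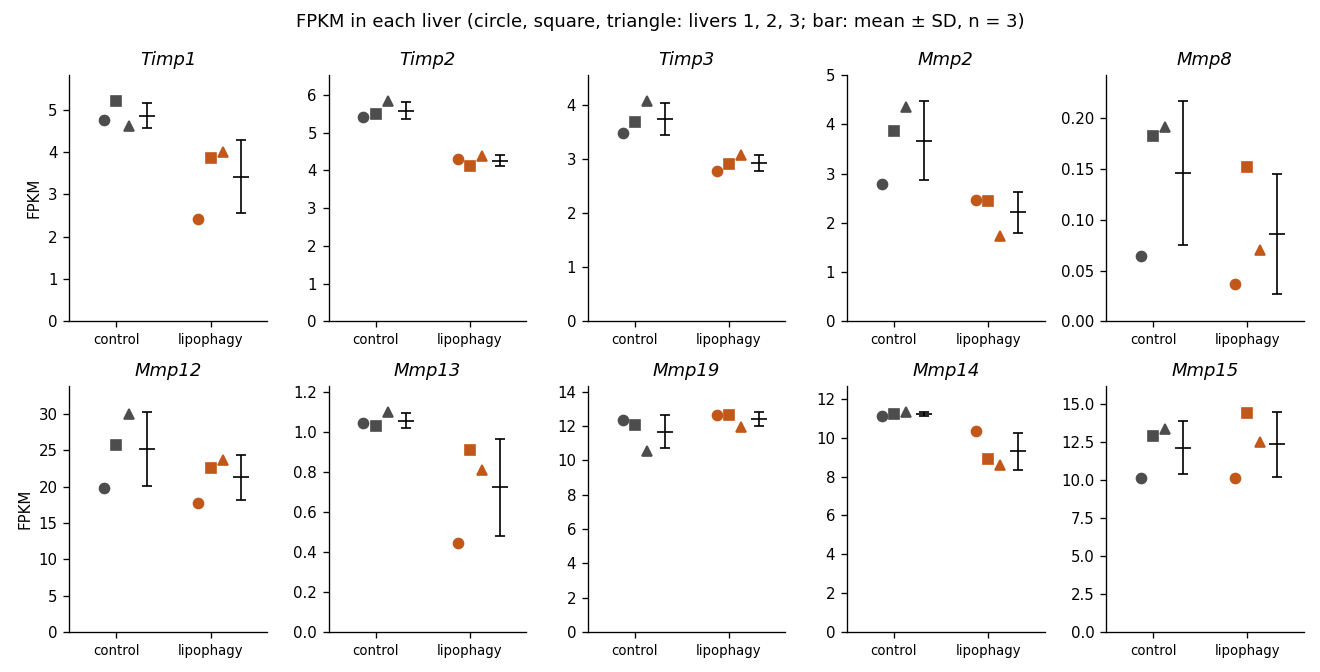
FPKM (vertical axis, from 0) of the 10 genes in each control and lipophagy liver, with livers 1, 2 and 3 as circle, square and triangle and the mean ± SD (n = 3) beside them. The groups are apart for Timp1, Timp2, Timp3, Mmp2, Mmp13 and Mmp14 and overlap for Mmp8, Mmp12, Mmp15 and Mmp19.

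Timp1, a secreted inhibitor of most metalloproteinases that blocks the membrane-bound ones poorly, was at 4.75, 5.20 and 4.62 FPKM in control livers 1, 2 and 3. In the lipophagy livers it was at 2.42, 3.85 and 3.99 FPKM. Lipophagy liver 1 was the lowest, and the other 2 were closer to the controls than to it. The group means were 4.86 ± 0.303 and 3.42 ± 0.868 FPKM (SD, n = 3), a log2 change of -0.43 with a standard error of 0.15 (adjusted p = 0.197, limma). Without lipophagy liver 1 the log2 change was -0.25 (adjusted p = 0.342, limma). The transcript is short, at 883 bases, and the values stood for an estimated 42.0 to 115 fragments per liver, so that counting error alone was 15.4% in the liver with the fewest.

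Timp2 both inhibits metalloproteinases and serves as the bridge by which Mmp14 binds the precursor of Mmp2. It was at 5.43, 5.49 and 5.84 FPKM in control livers and at 4.31, 4.11 and 4.37 FPKM in lipophagy livers. Both groups were tight, and the gap between them was wider than the range of either. The mean was 5.59 ± 0.220 FPKM (SD, n = 3) in control and 4.26 ± 0.139 FPKM (SD, n = 3) in lipophagy livers, 23.6% lower. The log2 change of -0.32 (standard error 0.074) had the smallest p of the 9 genes (adjusted p = 0.134, limma), and it lay between -0.47 and -0.30 over 18 settings of the test.

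Timp3, which stays bound to the matrix and also inhibits the sheddase Adam17, was at 3.49, 3.68 and 4.07 FPKM in control and 2.79, 2.91 and 3.08 FPKM in lipophagy livers. Here too the highest lipophagy liver was below the lowest control liver. Its log2 change was -0.27 with a standard error of 0.082 (adjusted p = 0.170, limma), and it lay between -0.41, with equal sums, and -0.22 over 18 settings. The fourth family member, Timp4, was listed at 0 in 4 livers and at 0.0596 FPKM or less in the others.

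Mmp2, the gelatinase that stellate cells make, had the most negative estimate of the tested members with all livers included. Without control liver 3 or without lipophagy liver 3 that of Timp1 was more negative (-0.46 against -0.43 and -0.52 against -0.42). Its values were 2.79, 3.87 and 4.35 FPKM in control livers and 2.46, 2.45 and 1.72 FPKM in lipophagy livers. Control liver 1 was the lowest control and lay close to lipophagy livers 1 and 2, while lipophagy liver 3 was apart from both. The mean went from 3.67 ± 0.799 to 2.21 ± 0.424 FPKM (SD, n = 3), 39.7% lower, with a log2 change of -0.53 and a standard error of 0.15 (adjusted p = 0.157, limma). Leaving out 1 liver at a time gave -0.68 to -0.42.

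Mmp14, the membrane-type enzyme that activates Mmp2, was at 11.1, 11.2 and 11.3 FPKM in control livers, the narrowest control range of the members relative to the mean. The lipophagy livers were at 10.4, 8.91 and 8.60 FPKM. Lipophagy liver 1, which had the lowest Timp1 and Mmp13, had the highest Mmp14 of its group. The log2 change was -0.25 with a standard error of 0.086 (adjusted p = 0.199, limma). With 1 liver left out it was -0.33 to -0.20, and the unadjusted p was below 0.05 in 2 of 6 such fits, those without control liver 1 and without lipophagy liver 1. With equal sums it was -0.42 (adjusted p = 0.0528, limma).

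Mmp15, the related membrane-type enzyme, had overlapping groups. It was at 10.1, 12.9 and 13.4 FPKM in control and 10.1, 14.4 and 12.5 FPKM in lipophagy livers, so that liver 1 was lowest in both groups. The log2 change was 0.020 with a 95% interval from -0.31 to 0.35 (adjusted p = 0.953, limma), and its sign turned with quantile normalization (-0.040) and with equal sums (-0.15). An interval of this width includes the change found for Mmp14, and the difference between them was not tested.

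Mmp13 is a main collagenase of rodents. It was low, at 1.05, 1.03 and 1.10 FPKM in control livers and 0.449, 0.914 and 0.812 FPKM in lipophagy livers. The controls lay within 0.1 FPKM of each other, whereas lipophagy liver 1 was below the 0.5 FPKM that the filter asks of a mean. The log2 change was -0.27 with a standard error of 0.11 (adjusted p = 0.248, limma), and the group mean was 31.6% below control. Since the gene is near 1 FPKM, the value rests on the pseudocount and was -0.54 with a pseudocount of 0.1. It was -0.15 without lipophagy liver 1 and -0.17 with quantile normalization, and an unadjusted p below 0.05 was found in 10 of 17 settings. The values stood for an estimated 26.8 to 94.5 fragments per liver.

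Mmp8, the collagenase stored in neutrophil granules, was close to the limit of detection. It was at 0.0648, 0.182 and 0.191 FPKM in control livers and 0.0365, 0.151 and 0.0699 FPKM in lipophagy livers. Multiplied by relative depth and divided by the step of 1 fragment, these values were within 0.4% of whole numbers, namely 4, 10 and 15 fragments in control livers and 2, 8 and 4 in lipophagy livers. The totals were 29 and 14 fragments. The groups overlapped (two-sided exact permutation test, p = 0.3), but with 3 livers a group this test cannot give a p below 0.1 and so could not have passed the threshold. In the fit without a filter its log2 change was -0.077 (adjusted p = 0.547, limma).

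Mmp12, the elastase of macrophages, was the most abundant member. It was at 19.8, 25.7 and 30.0 FPKM in control and 17.8, 22.5 and 23.6 FPKM in lipophagy livers. Control livers 2 and 3 were above every lipophagy liver, and control liver 1 was below lipophagy livers 2 and 3. The log2 change was -0.22 with a 95% interval from -0.59 to 0.15 (adjusted p = 0.460, limma). It was -0.38 without control liver 1 (adjusted p = 0.259, limma), -0.091 without control liver 3 and -0.10 without lipophagy liver 1. With equal sums it was -0.40 (adjusted p = 0.177, limma).

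Mmp19, a secreted enzyme that cleaves proteins of the basement membrane, was at 12.4, 12.1 and 10.6 FPKM in control and 12.6, 12.7 and 11.9 FPKM in lipophagy livers. Its log2 change of 0.084 had a 95% interval from -0.11 to 0.28 (adjusted p = 0.592, limma), and with equal sums it was -0.085. Mmp19 overlaps Tmem198b on the opposite strand. The library kit keeps strand, but whether the counting used it is not given in the sources used here.

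**Figure D2:**
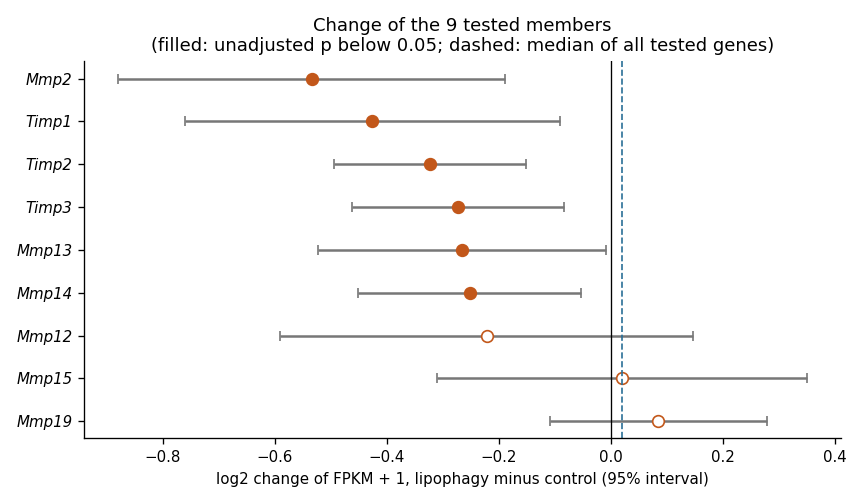
Log2 change of FPKM + 1 (horizontal axis, lipophagy minus control) with its 95% interval from limma for the 9 tested genes, ordered by size. Filled points have an unadjusted p below 0.05, the dashed line is the median of all tested genes at 0.020, and the intervals of Mmp12, Mmp15 and Mmp19 cross 0.

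FPKM is per length of transcript, so levels can be set side by side between genes. In control livers the order of mean FPKM was Mmp12 (25.2), Mmp15 (12.1), Mmp19 (11.7), Mmp14 (11.2), Timp2 (5.59), Timp1 (4.86), Timp3 (3.75), Mmp2 (3.67), Mmp13 (1.06) and Mmp8 (0.146). The ranges of Mmp15 and Mmp19, of Mmp19 and Mmp14 and of Timp3 and Mmp2 overlapped, and the other neighbours were apart. In lipophagy livers Mmp19 and Mmp15 changed places within overlapping ranges, and Timp1 (3.42) and Timp3 (2.93) now overlapped. Mmp12, Mmp14, Mmp15 and Mmp19 made up 92.0% to 93.2% of the summed FPKM of the 7 proteinases in control livers and 94.3% to 95.6% in lipophagy livers.

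The summed FPKM of the 3 inhibitors was 13.7, 14.4 and 14.5 in control livers and 9.52, 10.9 and 11.4 in lipophagy livers. For the 7 proteinases it was 57.4, 67.0 and 70.9 in control livers and 53.9, 62.0 and 59.3 in lipophagy livers. The inhibitor sums were thus apart and the proteinase sums overlapped. Inhibitor to proteinase, the ratio of these sums was 0.238, 0.214 and 0.205 in control livers and 0.177, 0.175 and 0.193 in lipophagy livers, lower in each of the latter. The proteinase sums are dominated by Mmp12, Mmp15, Mmp19 and Mmp14. Neither the sums nor their ratio carry a test, since the members were chosen with earlier results known.

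**Figure D3:**
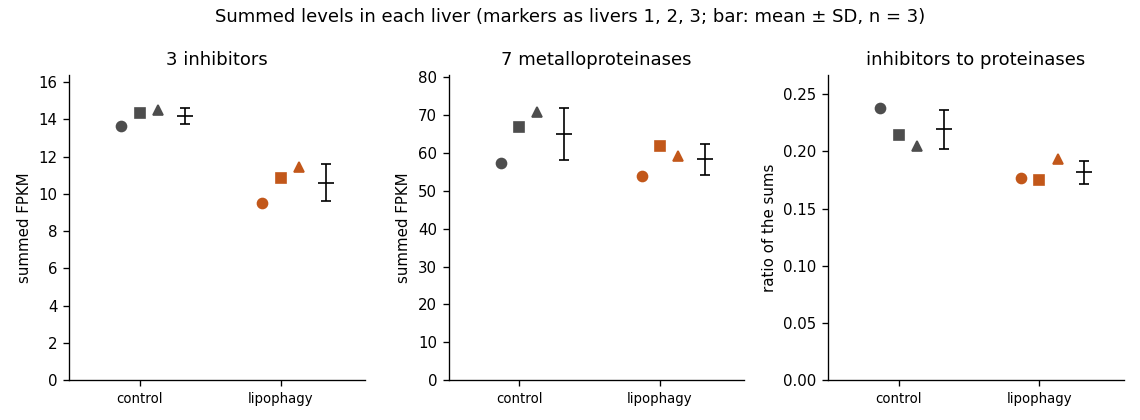
Summed FPKM of Timp1, Timp2 and Timp3, summed FPKM of the 7 Mmp genes, and the ratio of the first to the second (vertical axes from 0) in each liver, with livers 1, 2 and 3 as circle, square and triangle and the mean ± SD (n = 3). The inhibitor sums of 9.52 to 11.4 in lipophagy livers lie below those of 13.7 to 14.5 in control livers, whereas the proteinase sums overlap.

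For single pairs of genes the ratios of the control and lipophagy livers overlapped. Timp2 to Mmp14, both parts of the complex that activates Mmp2, stood at a ratio of 0.497 ± 0.0158 in control and 0.462 ± 0.0464 in lipophagy livers (SD, n = 3, two-sided exact permutation test, p = 0.3). Timp1 to Mmp13 was 4.59 ± 0.431 and 4.84 ± 0.593 (SD, n = 3, exact permutation test, p = 0.6). Timp1 to Timp2 was 0.871 ± 0.0779 in control and 0.803 ± 0.210 in lipophagy livers, with lipophagy liver 1 apart at 0.561 (exact permutation test, p = 0.8). Of 6 ratios compared, all had overlapping livers, with p from 0.3 to 0.8 and Benjamini-Hochberg adjusted p from 0.6 to 0.8, but the smallest p possible is 0.1, so these tests could not have passed the threshold and do not show that the ratios were alike.

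Among the other metalloproteinases, 3 of 16 were expressed enough to be tested. Mmp23, a membrane-anchored enzyme, was at 1.79, 1.98 and 2.15 FPKM in control and 1.26, 1.17 and 1.49 FPKM in lipophagy livers, a log2 change of -0.37 with a standard error of 0.089 (adjusted p = 0.135, limma). Its groups were apart, as in the 6 members above. Mmp7 had the largest negative estimate (-0.56, adjusted p = 0.628, limma) on widely spread livers, and Mmp27 the estimate nearest 0 (-0.057). The gelatinase Mmp9 was at 0.263 FPKM or less in every liver.

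Of the 7 tested Adamts genes, which encode secreted proteinases with thrombospondin repeats and their relatives, 3 had an unadjusted p below 0.05, all lower. Adamts1 had the largest estimate, with 1.52 ± 0.0968 FPKM in control and 0.834 ± 0.153 FPKM in lipophagy livers (SD, n = 3), a log2 change of -0.46 (adjusted p = 0.119, limma). Adamts13, the von Willebrand factor protease made by stellate cells, was at the other end (0.025). In the 8 tested Adam genes 1 was lower and 1 higher at this level, namely Adam15 (-0.35) and Adam11 (0.28), close to the shares of 7.97% and 11.5% over all tested genes, and the median was -0.085. With equal sums 3 were lower and 0 higher, against 21.8% and 2.05% of all tested genes. The median was then -0.24, against -0.12 for all tested genes.

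The plasminogen system, whose proteases activate metalloproteinase precursors, held genes with estimates of either sign. Serpine2, a protease inhibitor of the matrix, had the largest negative estimate, with 2.30 ± 0.321 FPKM in control and 1.34 ± 0.126 FPKM in lipophagy livers (SD, n = 3), a log2 change of -0.49 (adjusted p = 0.119, limma), and Klkb1, plasma prekallikrein made by hepatocytes, the largest positive one (0.21, adjusted p = 0.233, limma). Of its 11 tested genes 3 were lower and 2 higher with an unadjusted p below 0.05, against 7.97% and 11.5% of all tested genes. Among 10 activating proteases 0 were lower and 1 was higher at this level. This was Furin, which cuts the propeptide of the membrane-type enzymes (0.21, adjusted p = 0.208, limma), and Ctss had the largest negative estimate (-0.20). In a list of other inhibitors and related proteins 4 genes were tested, and 2 were lower at this level. These were Pcolce (-0.40), which is no inhibitor but enhances the cleavage of procollagen by Bmp1, and Lrp1 (-0.29), the receptor that clears proteinase and inhibitor complexes. Pzp, a broad proteinase inhibitor of plasma, had the highest estimate (0.18). The log2 change of Bmp1, the procollagen protease and the only tested gene of the astacin list, was 0.13 (adjusted p = 0.345, limma). With equal sums 5 of the 11 plasminogen system genes, 3 of the 10 activating proteases and 2 of the 4 other inhibitors were lower at this level. Of each list 0 were then higher, and over all tested genes 21.8% were lower and 2.05% higher.

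Most genes of the matrix substrates were lower in the lipophagy livers. Of 12 tested, 11 had an unadjusted p below 0.05, all lower, 0 had an adjusted p below 0.05 (limma), and the median was -0.37. Over all tested genes 7.97% were lower and 11.5% higher at the unadjusted level, the same background as for the next list. Col1a1, the main chain of scar collagen, was at 5.91, 6.15 and 6.98 FPKM in control and 2.63, 3.99 and 3.61 FPKM in lipophagy livers, a log2 change of -0.75 (adjusted p = 0.103, limma). Fn1, the fibronectin gene that hepatocytes also express, was nearest to 0 (-0.065). In a list of cytokines and transcription factors known to induce metalloproteinase genes, 8 of 11 tested were lower at an unadjusted p below 0.05 and 0 were higher, Il1b having the largest difference (-0.55, adjusted p = 0.0915, limma) and Ets2 the smallest (-0.14). Jun, a subunit of AP-1, was at -0.41 (adjusted p = 0.131, limma). Of the collagen, cytokine and proteinase genes in these lists, 0 had an adjusted p below 0.05. With equal sums Col1a1, Col1a2, Col3a1, Il1b, Serpine2, Adamts1 and Pcolce had one (adjusted p = 0.0395, 0.0421, 0.0452, 0.0330, 0.0421, 0.0463 and 0.0395, limma), the estimate of Bmp1 turned to -0.041, and none of Furin, Klkb1 and Adam11 had an unadjusted p below 0.05.

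**Figure D4:**
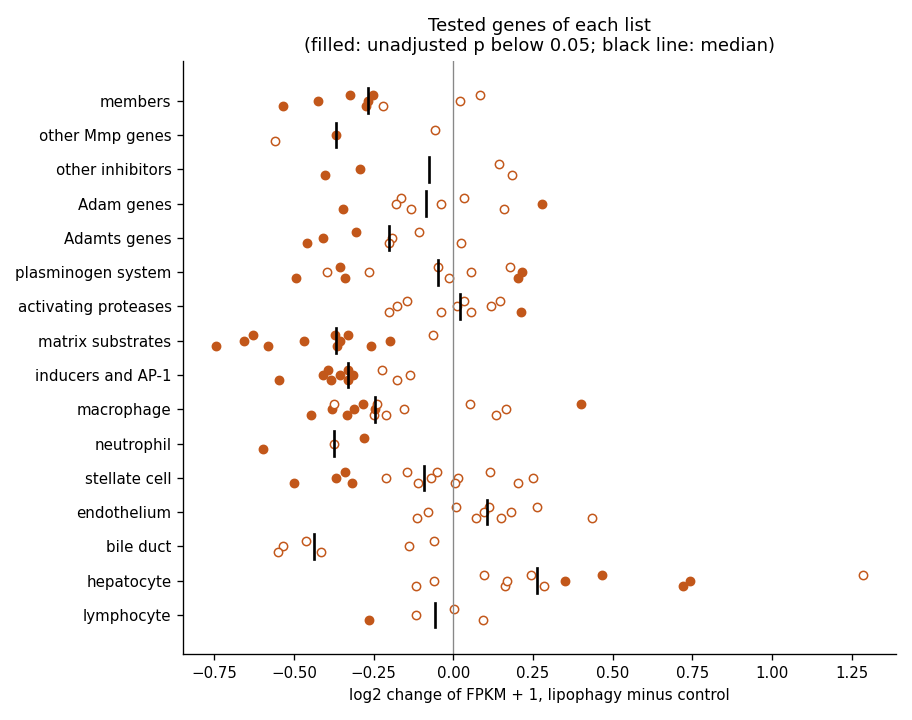
Log2 change of FPKM + 1 (horizontal axis, lipophagy minus control) of each tested gene in the members and in 15 other lists. Filled points have an unadjusted p below 0.05 and the black line is the median of a list, which is -0.27 for the members, -0.37 for matrix substrates and 0.26 for hepatocyte markers.

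Markers of the cells that make these genes moved in part with them, and their part in the results was not tested. Among 15 tested macrophage markers 6 were lower and 1 higher with an unadjusted p below 0.05 (7.97% and 11.5% over all tested genes, for each marker list here), from Ly6c2 of monocytes (-0.45) to Vsig4 of Kupffer cells (0.40), and the summed FPKM of the list was 526 to 735 in control and 525 to 664 in lipophagy livers. None of the markers was listed at 0 in every liver. Beside Mmp12, the lipid-associated macrophage marker Gpnmb was at 34.2, 45.2 and 53.2 FPKM in control and 31.6, 42.0 and 39.3 FPKM in lipophagy livers, with the control livers in the same order as for Mmp12 and lipophagy livers 2 and 3 in the reverse order. The Kupffer cell marker Clec4f, at 30.0, 29.0 and 21.0 FPKM in control and 33.3, 27.3 and 28.8 FPKM in lipophagy livers, had the reverse order in control livers. Of the same list, Trem2 was at 21.6, 28.6 and 33.7 FPKM in control and 23.49, 23.04 and 22.97 FPKM in lipophagy livers. It had the order of Mmp12 in control livers and the reverse order in lipophagy livers. Cd9, at 31.4, 40.9 and 50.2 FPKM in control and 28.1, 37.9 and 27.2 FPKM in lipophagy livers, was lowest in lipophagy liver 3. Gpnmb, Clec4f, Trem2 and Cd9 were chosen after their values were seen. Of 3 tested neutrophil markers 2 were lower at this level, S100a9 with the largest estimate (-0.60) and Csf3r with the smallest (-0.28), while the other 7 were below the filter. Of these Mpo, Elane, Retnlg, Cxcr2 and Ltf had lower means in lipophagy livers. Camp (0.253 and 0.330 FPKM in control and lipophagy livers) and Ngp (0.351 and 0.373 FPKM) had higher ones. The livers of the groups overlapped for each of them.

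Of 14 stellate cell markers, all of which were tested, 4 were lower and 0 higher with an unadjusted p below 0.05, and the shares over all tested genes were again 7.97% and 11.5%, for the lists that follow too. Lum, a proteoglycan of activated cells, was lowest (-0.50, adjusted p = 0.148, limma), and Lrat, which stores retinoid in resting cells, was highest (0.25, adjusted p = 0.351, limma). Des, the filament protein that marks stellate cells in either state, was at 2.35 ± 0.0736 FPKM in control and 2.23 ± 0.124 FPKM in lipophagy livers (SD, n = 3), a log2 change of -0.050 (adjusted p = 0.734, limma). The list sums overlapped, at 206 to 249 FPKM in control and 172 to 252 FPKM in lipophagy livers. In the endothelium list 0 of 10 genes had an unadjusted p below 0.05, with estimates from -0.11 (Pecam1) to 0.43 (Clec4g). Of 12 hepatocyte markers 0 were lower and 4 higher at this level, from Trf (-0.12) to G6pc (1.29), and the list sum was 67795 to 75304 FPKM in control and 80731 to 102867 FPKM in lipophagy livers. Of 4 lymphocyte markers tested 1 was lower, Nkg7 (-0.26), and Cd79b was highest (0.093). With equal sums, where 21.8% of all tested genes were lower and 2.05% higher at this level, 10 of 15 macrophage, 3 of 3 neutrophil, 6 of 14 stellate cell, 5 of 6 bile duct, 1 of 4 lymphocyte and 0 of 10 endothelium markers were lower. Of the 12 hepatocyte markers 1 was then lower and 1 higher, the latter being Ass1 of the urea cycle (0.54, adjusted p = 0.0421, limma).

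**Figure D5:**
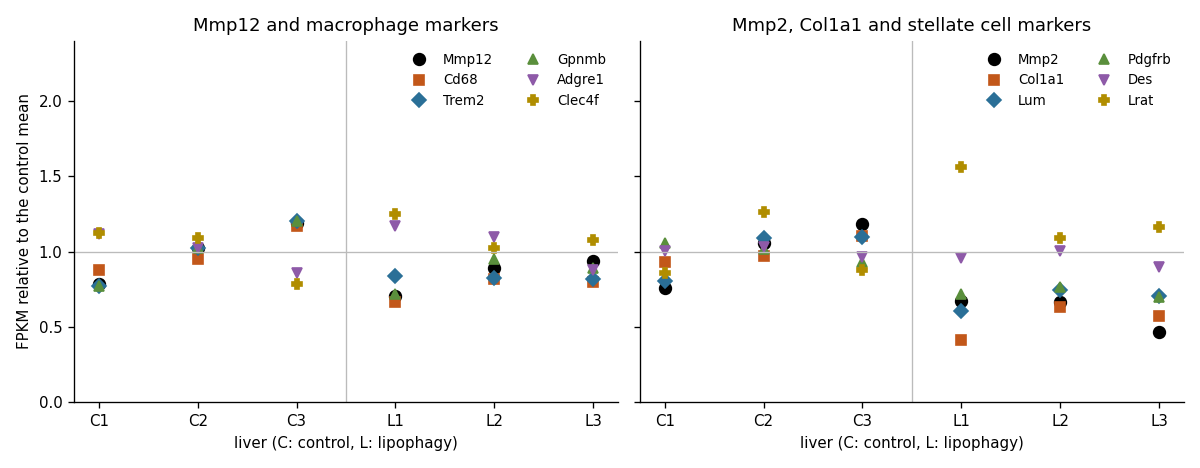
FPKM of each gene divided by its mean in the 3 control livers (vertical axis, from 0) in control livers C1 to C3 and lipophagy livers L1 to L3, for Mmp12 beside macrophage markers (left) and Mmp2 beside Col1a1 and stellate cell markers (right). Mmp12 and Gpnmb rank the control livers alike but not lipophagy livers 2 and 3. Mmp2, Col1a1, Lum and Pdgfrb are below 1 in each lipophagy liver while Des stays near 1. Lrat is above 1 in each lipophagy liver, but its groups overlap, with control liver 2 above lipophagy livers 2 and 3.

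The genes whose levels across the 6 livers were nearest to Timp1 were Gpr65, Prc1 and C5ar1. Nearness was the root mean square difference of the log2 deviations from each gene's own mean, which was 0.0664, 0.0936 and 0.0947 for these genes and 0.311 for the median tested gene. Gpr65, a proton-sensing receptor of leukocytes, was at 2.51, 2.72 and 2.47 FPKM in control and 1.20, 1.71 and 2.16 FPKM in lipophagy livers. Prc1 bundles microtubules in dividing cells and C5ar1 is the complement C5a receptor, and both were lowest in lipophagy liver 1, as Timp1 was. Among the members Mmp13 was nearest to Timp1, at 0.117, and Mmp19 farthest, at 0.323.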

How the data were processed

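Liver RNA was made into libraries with a stranded mRNA kit and sequenced in paired-end mode. The table deposited by the authors gives FPKM values by gene symbol for every liver. Some symbols in it had been turned into dates, and 2 of these names stood in 2 rows each, none of them a member. The submitters' processing notes list TopHat2 2.0.13, Bowtie2 2.2.3, SAMtools 0.1.19, Cufflinks 2.2.1 and the build mm10. The annotation and the use of strand are not given in the sources used here. FPKM is scaled to length and library total, and a count-based test was therefore not applied. Alternatives changed the pseudocount, filter, scaling, trend, weights, block or livers, and the scaling to equal sums was added after seeing the data.

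Groups and replicate numbers came from the sample titles. Genes whose mean over all livers reached 0.5 FPKM were tested on log2(FPKM + 1) with limma 3.58.1 in R 4.3.3 (moderated variance with an intensity trend, two-sided, no covariates) and Benjamini-Hochberg adjustment over all of them at 0.05. The procedure was tested on simulated data. A two-sided exact permutation test (scipy 1.17.1) was run for ratios and for Mmp8. The members and lists were chosen with earlier results of these data known. All members are named. In each other list the genes with the largest positive and negative estimate are named, and other genes were chosen after their values were seen.

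Relative depth came from the steps of low values, and absolute depth from 435 low single-transcript genes with GENCODE M21 lengths less 150 bases. It was 22900000 to 34000000 fragments, or 21200000 to 31600000 without this subtraction. Fragment numbers are estimates and cover counting error only. Spearman correlations between livers were 0.979 to 0.982, with 0 identical pairs. Plots were made with matplotlib 3.10.9 in Python 3.11.15.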

Additional observations from a re-analysis of the deposited data

How the results depend on the processing

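Over 17 alternatives the log2 changes of the 9 tested members kept their sign in 147 of 152 values, and none of them had an adjusted p below 0.05 (lowest 0.0512, Timp2 with equal sums). The 5 others belonged to Mmp15, at -0.040 with quantile normalization, -0.15 with equal sums and between -0.10 and 0.14 with 1 liver left out, and Mmp19, at -0.085 with equal sums. The count of members with an unadjusted p below 0.05 was 3 to 6 with 1 liver left out, when 596 to 943 of all tested genes were lower at this level. The median log2 change of the members was -0.34 with a pseudocount of 0.1 and -0.41 with equal sums, a setting chosen after seeing the data. Over all tested genes, the number with an adjusted p below 0.05 was 1 with no filter, 43 with the replicate block, 39 with liver quality weights, 104 with equal sums and 2 to 11 with 1 liver left out (11 on leaving out lipophagy liver 3, 7 for control liver 2 and 5 for lipophagy liver 2). The cause was not tested. With the replicate block 7 members had an unadjusted p below 0.05, Mmp12 being added (adjusted p = 0.269, limma). All 7 were lower, as were 911 of 11493 tested genes at this level. The deviations of same-numbered livers had r = 0.25, 0.234 and -0.0565 in pairs 1, 2 and 3, and those of control liver 3 and lipophagy liver 2 had r = 0.251, so the numbers were not taken as pairs. With 1 liver left out, the difference in the ratio of Timp1 to Timp2 was -0.135 to 0.0527, to Mmp13 -0.0324 to 0.557, to Mmp12 -0.0623 to -0.0194 and to Mmp2 -0.0938 to 0.573. Depth limits Mmp8, with at most 15 fragments in a liver, more than any other member.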

Other observations

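Mmp7, matrilysin, which bile duct epithelium is known to express, had high and low livers in both groups. It was at 0.635, 2.78 and 4.77 FPKM in control livers and 0.358, 4.64 and 0.456 FPKM in lipophagy livers. Control livers 2 and 3 and lipophagy liver 2 were thus high and the other 3 low. The bile duct keratin Krt19 was at 1.91, 4.16 and 4.05 FPKM in control and 1.43, 3.36 and 1.37 FPKM in lipophagy livers, and Krt7 at 0.734, 1.59 and 1.79 FPKM and 0.384, 1.35 and 0.481 FPKM, with the same 3 livers high. Epcam, the bile duct marker with the lowest estimate (-0.55), was at 2.17, 4.98 and 4.29 FPKM and 1.92, 3.75 and 1.31 FPKM. Sox9 was nearest to 0 (-0.060). All 6 tested bile duct markers had negative estimates, and 0 had an unadjusted p below 0.05 (limma), against 7.97% lower and 11.5% higher over all tested genes. With equal sums 5 of the 6 were lower at this level, against 21.8% of all tested genes. The summed list was 11.4 to 17.7 FPKM in control and 8.41 to 15.5 FPKM in lipophagy livers. Mmp8, which lies on the same stretch of chromosome 9, had its 3 highest values in the same 3 livers, at 15, 10 and 8 fragments, too few to rank the livers.

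Mmp15 was likewise highest in these 3 livers, at 12.9 and 13.4 FPKM in control livers 2 and 3 and 14.4 FPKM in lipophagy liver 2, with lipophagy liver 3 close below at 12.5 FPKM. Timp1, Timp2, Timp3, Mmp2, Mmp13 and Mmp14 were lower in all 3 lipophagy livers, lipophagy liver 2 included. Krt19, Krt7 and the orders of Mmp8 and Mmp15 were chosen after their values were seen.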
